A study of Mus musculus with 12 samples.

Results

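Cluster 1 was a list of 160 genes whose promoters carried more H3K4me3 in the hippocampus of Kansl1+/- mice, and the members described here were the 190 Gene Ontology (GO) terms that the deposited table listed for it, of 1076 listed entries in all 8 deposited tables. A GO term is a named set of genes with a common function, process or location in the cell. The mark was measured by ChIP-seq, the sequencing of DNA bound to an immunoprecipitated protein, in 12 whole hippocampi of C57BL/6N mice at postnatal day 30. The Kansl1+/- group held 3 mice heterozygous for the Kansl1 tm1b(EUCOMM)Hmgu allele, which was made by Cre recombination in a line that went back to 1 embryonic stem cell clone. The Del/+ group held 3 mice heterozygous for a deletion of the interval from Arf2 to Kansl1, so both mutants kept 1 intact copy of Kansl1. The control group held 6 wt mice, 3 littermates of each mutant, and both mutants were compared with the same 6 libraries.

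The members were chosen by measured values at each step. Genes were selected on H3K4me3 raised in either mutant against wt and grouped into clusters on the same libraries, cluster 1 being those raised in Kansl1+/- and not in Del/+, and terms were listed on the number of cluster genes they held. The listing of a term is therefore no finding, and its count is given as a description without a test. The tables held counts of genes per term and no values per mouse, so the spread between mice and the depth of the libraries were not analysed here. They named no genes either, and markers of hippocampal cells were not analysed here, so the labelled tissue was not set against them. For the same reason the word "only" in the description of cluster 1, genes up in Kansl1+/- only, could not be followed gene by gene. Hippocampus is a mixture of cells, and more cells of a type and more of the mark per cell cannot be told apart in it.

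KANSL1 is a scaffold subunit of the NSL complex, which carries the histone acetyltransferase KAT8 (MOF) and binds at the promoters of many active genes. H3K4me3, the trimethylation of lysine 4 of histone H3, marks promoters in use. The extracellular matrix is the network of collagens and other secreted proteins around cells, and endochondral bone is bone that replaces a cartilage template. Bone morphogenetic proteins (BMPs) are secreted factors that act through receptor kinases in the skeleton, the heart, the kidney and the embryonic nervous system. In brain, matrix genes are used by vessels, meninges, the choroid plexus and glia as well as by neurons.

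Of 21172 GO terms tested by the authors, 190 (0.897%) were listed for cluster 1 at their threshold of p < 1e-05. The same threshold listed 104 terms (0.491%) for the 214 genes of cluster 2, 125 (0.590%) for the 212 genes of cluster 3 and 89 (0.420%) for the 162 genes of cluster 4. Cluster 1 had the longest of the 4 tables and the shortest gene list. The terms of cluster 1 were arranged in 28 blocks of related terms, and many hold the same genes under a wider or a narrower name, so their counts cannot be added up. A count is the number of cluster 1 genes in a term, a share is that count as a percentage of the 160 genes with its exact 95% Clopper-Pearson interval for counting error, and a ratio is the count over the expected number. The expected number was computed by the authors from a background of 23468 genes.

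The ratio went from 1.27 for cellular process to 100 for cellular response to heparin, with a median of 3.99. It moved with the size of the term, since a small term needs a higher ratio to be listed. The 23 terms with at most 100 background genes had a median ratio of 14.5 and held 3 to 10 genes of the cluster. The 48 terms with more than 100 and up to 500 genes had a median of 7.45, the 46 with up to 1000 genes had 3.91, and the 73 larger ones had 2.65. In the plot of counts by term size the smallest listable count rises in steps from 3 genes for terms of 5 background genes. Of the 190 terms, 38 lay at that smallest count, 69 lay at least 5 genes above the highest count that would have left them unlisted, and the largest distance was 20 genes, for developmental process and system development.

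**Figure D1:**
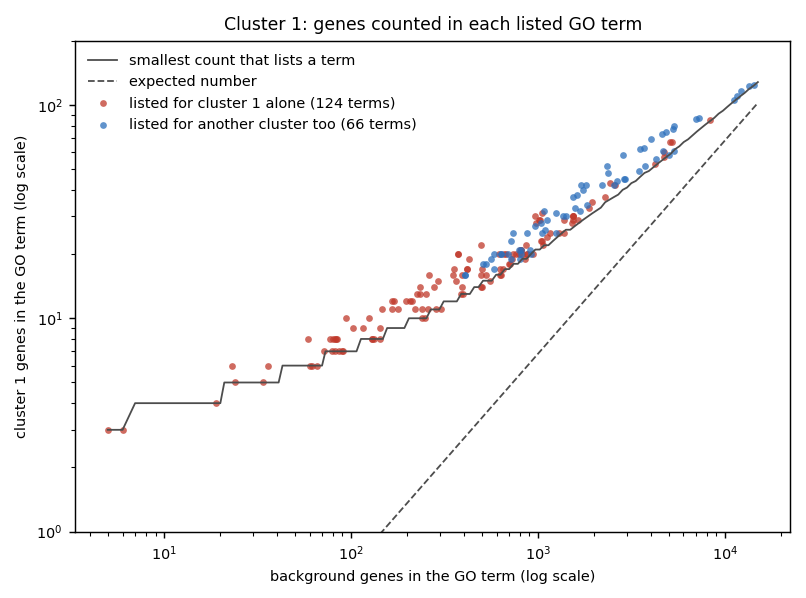
Each point is 1 of the 190 GO terms of cluster 1, with the number of background genes in the term on the x axis and the number of cluster 1 genes on the y axis, both on log scales. The solid line is the smallest count at which a term of that size is listed and the dashed line is the expected number. All 23 terms with at most 100 background genes are listed for cluster 1 alone (red), and the terms listed for another cluster too (blue) have at least 407.

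For 124 of the 190 terms the tables of clusters 2, 3 and 4 had no entry, and these are named theme by theme. The other 66 terms were listed for at least 1 more cluster: 7 for cluster 2, 25 for cluster 3, 17 for clusters 2 and 3, 3 for clusters 3 and 4, and 14 for all 4 clusters. Cluster 1 shared 38 terms with cluster 2 (20.0% of its own and 36.5% of those of cluster 2), 59 with cluster 3 (31.1% and 47.2%) and 17 with cluster 4 (8.95% and 19.1%). The median ratio in cluster 1 was 5.52 for the 124 terms and 3.22 for the 66. The terms were sorted by hand into 14 themes by their names. The 3 terms with the most genes and the 3 with the highest ratio of each theme are given with values.

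Extracellular matrix and collagen made up 14 terms, all 14 listed for cluster 1 alone, with a median ratio of 11.6. They have 23 to 428 background genes. Over all themes, 23 of 23 terms with at most 100 genes and 46 of 48 with up to 500 were listed alone. The 14 of 14 is thus near the share for any term of that size, and nothing is read from it about the matrix. Extracellular matrix organization, the assembly and turnover of the matrix, held 20 of the 160 genes, 12.5% (7.81% to 18.6%), where 2.55 were expected. Extracellular structure organization held 20 as well, of 375 background genes against 374, so it is nearly the same set. The compartment terms extracellular matrix and proteinaceous extracellular matrix held 19 genes (ratio 6.51) and 17 genes (7.02). These 4 terms carry the theme by number. The smallest term of the theme, complex of collagen trimers, the assemblies such as fibrils that collagen trimers build, held 6 of its 23 background genes, which is 26.1% of the term (10.2% to 48.4%) and a ratio of 37.5.

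Collagen trimer, the triple helix itself, held 8 of 82 genes, a ratio of 14.3. Collagen catabolic process, its breakdown, held 7 of 72 and also had a ratio of 14.3, as did extracellular matrix structural constituent with 6 of 62. Terms for building parts and for turnover were thus both listed. No genes were named, so whether these terms hold the same genes of the cluster cannot be seen. Extracellular matrix component (11 genes, ratio 11.0) and extracellular matrix disassembly (9 genes, 11.4) belonged to the same theme. The remaining 4 terms, collagen metabolic process, multicellular organismal catabolic process, multicellular organismal macromolecule metabolic process and multicellular organismal metabolic process, held 7 genes each. These have 79 to 91 background genes and lay at the smallest listable count. With 1 gene fewer, 9 of the 14 matrix terms would have been listed.

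Skeleton, cartilage and growth made up 12 terms, all listed for cluster 1 alone, with a median ratio of 10.5. They have 24 to 502 background genes. Over all themes, 23 of 23 terms with 5 to 94 genes and 46 of 48 with 103 to 500 were listed alone. The 12 of 12 is thus near the share for terms of that size, and nothing is read from it about the skeleton. The same caution holds for terms of up to 500 genes in the themes below. Of the larger terms, 27 of 46 with 502 to 973 genes and 28 of 73 with 1016 or more were listed alone over all themes. These shares stand beside every count of terms listed alone below. Skeletal system development had the most genes, 22 of 160 or 13.8% (8.82% to 20.1%), where 3.37 were expected. Growth held 17 genes (ratio 4.97) and developmental growth held 15 (6.05). The highest ratios belonged to terms of bone made through cartilage. Endochondral bone growth, the lengthening of such bones, held 5 of 24 background genes (ratio 31.2), which is 20.8% of the term (7.13% to 42.2%). Endochondral bone morphogenesis held 8 of 59 genes (ratio 20.0), and bone morphogenesis, the shaping of bones in general, held 10 of 94 (15.6). The other 6 terms were skeletal system morphogenesis, cartilage development, bone development, connective tissue development, developmental growth involved in morphogenesis and organ growth, with 8 to 14 genes each. With 1 gene fewer, 11 of the 12 would have been listed, endochondral bone growth being the exception.

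Growth factor and BMP signalling made up 8 terms, again all listed for cluster 1 alone, with a median ratio of 9.13. Receptor binding, the widest of the 8 terms, held 30 genes (18.8%, 13.0% to 25.7%) at a ratio of 2.85. Enzyme linked receptor protein signaling pathway held 20 at 3.12. Regulation of cellular response to growth factor stimulus held 16 genes at 8.99. The narrower terms concerned receptor serine/threonine kinases, through which BMPs and the related TGF-beta factors signal. Positive regulation of BMP signaling pathway held 6 of 36 background genes, a ratio of 24.0, and regulation of BMP signaling pathway held 7 of 89, a ratio of 11.5. Positive regulation of transmembrane receptor protein serine/threonine kinase signaling pathway held 9 of 103 genes, a ratio of 12.9. The 2 remaining terms were regulation of transmembrane receptor protein serine/threonine kinase signaling pathway (13 genes) and negative regulation of cellular response to growth factor stimulus (9 genes). For the response to growth factors the table thus listed a general and a negative term, and for BMP signalling a general and a positive one.

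Heart and vessels made up 13 terms, all listed for cluster 1 alone, with a median ratio of 7.28. All but cardiovascular and circulatory system development have at most 500 background genes, a size at which nearly all terms were listed alone. Cardiovascular system development and circulatory system development held equal counts, 21 of 816 genes (13.1%, 8.31% to 19.4%), and vasculature development held 14 of 500. Endocardial cushion development, the swellings that become heart valves and septa, held 5 of 34 genes, a ratio of 21.7. Other narrow terms followed: negative regulation of angiogenesis held 8 of 77 genes (15.4), and artery morphogenesis held 6 of 60 (14.6). Negative regulation of blood vessel morphogenesis and negative regulation of vasculature development also held 8 genes each. No term for positive regulation of angiogenesis was among the 190. An unlisted term can still hold genes of the cluster, so no direction is read from this. Blood vessel morphogenesis, regulation of angiogenesis, regulation of vasculature development, heart morphogenesis and artery development held 6 to 13 genes. With 1 gene fewer, 7 of the 13 would have been listed, so counts in this theme lay close to the threshold.

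Epithelium, tubes, kidney, lung and glands made up 18 terms with a median ratio of 7.13, all listed for cluster 1 alone. Epithelium development held 31 genes, 19.4% of the cluster (13.6% to 26.4%), where 7.17 were expected. Tube development held 20 genes (ratio 4.73), and epithelial tube morphogenesis, the folding and budding of such tubes, held 16 (6.72). Epithelial cell fate commitment had the highest ratio with 4 of 19 background genes (30.8). Branching morphogenesis of an epithelial tube, by which lung, kidney and glands form, held 11 of 166 (9.73), and regulation of epithelial cell differentiation held 8 of 129 (9.09). Kidney development held 13 of 235 genes, a ratio of 8.12, and urogenital system development held 15 of 292, a ratio of 7.54. The other terms were tube morphogenesis, morphogenesis of an epithelium, epithelial cell differentiation, renal system development, gland development, morphogenesis of a branching epithelium, morphogenesis of a branching structure, regulation of epithelial cell proliferation, respiratory system development and columnar/cuboidal epithelial cell differentiation, with 8 to 16 genes each.

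Embryo and reproduction made up 11 terms, all listed for cluster 1 alone, with a lower median ratio of 3.96. Reproductive process held 25 genes, embryo development 24 and single organism reproductive process 23. Male sex differentiation held 8 of 132 genes (ratio 8.89), sex differentiation held 11 of 258 (6.25), and reproductive structure development held 17 of 415 (6.01). The others were reproductive system development, developmental process involved in reproduction, chordate embryonic development, embryo development ending in birth or egg hatching and embryonic morphogenesis. A further 6 terms, also listed for cluster 1 alone, were sensory organ development (15 genes, ratio 3.97), cell fate commitment (14 genes, 7.37), muscle structure development (14 genes, 4.17), negative regulation of immune system process (14 genes, 5.26), stem cell development (11 genes, 5.67) and mesenchymal cell development (8 genes, 8.25). Of these 6, the table would have kept 2 with 1 gene fewer.

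**Figure D2:**
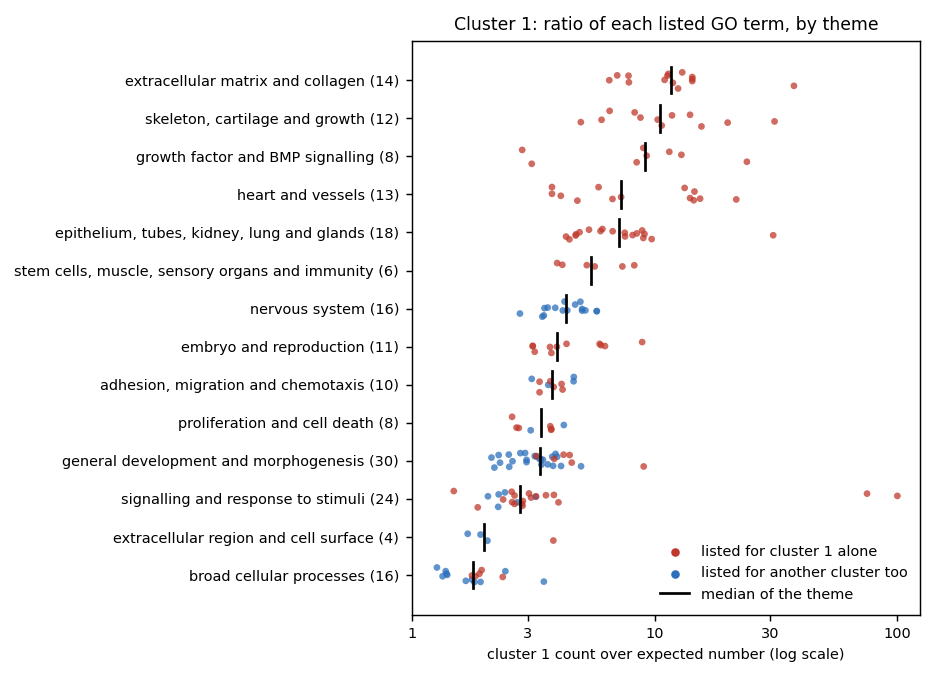
Each point is 1 GO term of cluster 1, placed by its count over its expected number on a log scale, in rows by theme with the number of terms in brackets. Black bars are theme medians. The 5 themes at the top, with medians of 11.6, 10.5, 9.13, 7.28 and 7.13, hold terms listed for cluster 1 alone (red). The 16 nervous system terms are all listed for another cluster too (blue). Listing alone goes with small terms over the whole table. The nervous system terms have 407 to 2204 background genes. Over all themes, 46 of 48 terms with 103 to 500 genes, 27 of 46 with 502 to 973 and 28 of 73 with 1016 or more are listed alone. The 0 of 16 lies below these shares, and no test of this was made.

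The nervous system theme had 16 terms, and 0 of the 16 were listed for cluster 1 alone. They have 407 to 2204 background genes. Over all themes, 46 of 48 terms with 103 to 500 genes, 27 of 46 with 502 to 973 and 28 of 73 with 1016 or more were listed alone. The 0 of 16 lies below these shares, but the terms share genes and no test of this was made. All 16 were listed for cluster 3, 9 for cluster 2 and 8 for cluster 4. Nervous system development held 42 genes of cluster 1, 26.2% (19.6% to 33.8%), with a ratio of 2.79. Neurogenesis held 38 (3.45) and generation of neurons held 37 (3.52). Axon guidance and neuron projection guidance, the steering of growing axons, held equal counts, 16 of 407 genes, and had the highest ratio of the theme, 5.78. Axonogenesis, the outgrowth of the axon, followed with 18 genes (5.19). The 16 terms describe the development of the nervous system and of its neurons, and none of them names the synapse.

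Of these terms, 7 were listed for all 4 clusters, and their shares are given side by side. In nervous system development cluster 1 had 26.2%, cluster 2 had 22.9% (49 genes), cluster 3 had 29.2% (62) and cluster 4 had 27.8% (45). Neurogenesis took 23.8%, 18.2%, 23.6% and 19.1% of clusters 1 to 4, and generation of neurons took 23.1%, 17.8%, 23.6% and 19.1%. The interval of cluster 1 overlapped those of the other clusters in each of the 7 terms. Neuron differentiation took 20.0% of cluster 1 (14.1% to 27.0%) against 15.0%, 14.6% and 14.8% of the others, and neuron projection development took 14.4% against 11.2%, 11.8% and 12.3%. Neuron development took 15.6% of cluster 1 and 12.6%, 12.7% and 14.8% of clusters 2, 3 and 4. Regulation of nervous system development took 12.5%, 10.7%, 13.2% and 11.7%.

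The 14 terms listed for all 4 clusters had a median ratio of 3.12 in cluster 1. Besides the 7 nervous system terms just given, they were wide terms of development and of the cell surface. Single-organism developmental process took 48.1%, 37.4%, 46.2% and 37.7% of clusters 1 to 4, anatomical structure development 46.9%, 36.9%, 42.0% and 35.8%, and multicellular organismal development 45.6%, 36.4%, 42.5% and 35.8%. System development took 43.1% of cluster 1 (35.3% to 51.2%) and 34.1%, 38.7% and 35.2% of the others. Cell projection organization took 15.6%, 12.1%, 13.2% and 14.8%, and regulation of multicellular organismal process 27.5%, 26.2%, 26.4% and 23.5%. Cell periphery ran the other way for clusters 3 and 4, with 36.2% of cluster 1 against 35.0%, 39.2% and 41.4%.

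**Figure D3:**
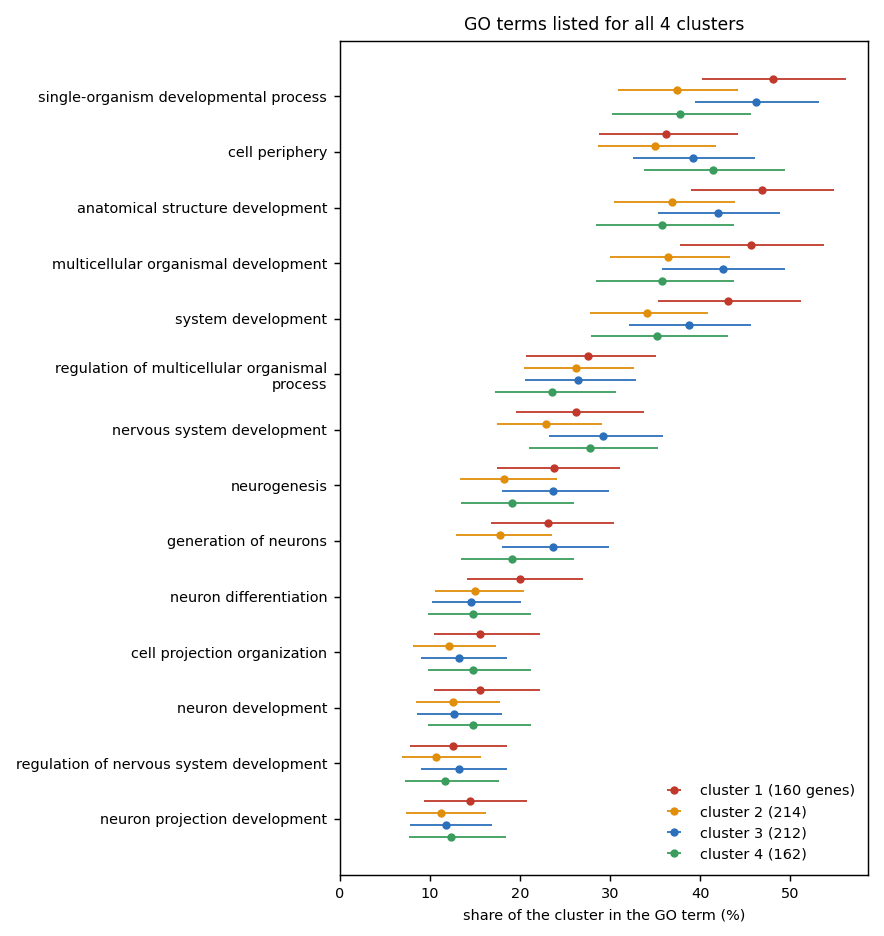
Points are the share of each cluster's genes in the 14 GO terms listed for all 4 clusters, in percent, and bars are exact 95% intervals for counting error. The intervals of cluster 1 overlap those of the other 3 clusters in all 14 terms.

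Over all shared terms, the share in cluster 1 was the higher in 38 of 38 terms shared with cluster 2 (median share 26.2% against 19.4%), in 49 of 59 shared with cluster 3 (23.1% against 20.3%) and in 14 of 17 shared with cluster 4 (26.2% against 23.5%). The intervals overlapped in all 38, all 59 and all 17. Clusters 2 and 3 are larger than cluster 1 and reach the threshold at a lower share, so the directions against them carry little. Cluster 4 has nearly the size of cluster 1, and there the shared terms had passed the threshold in both. The clusters were also derived from comparisons that share the 6 wt libraries, and no test of their difference was made.

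General development and morphogenesis was the largest theme, with 30 terms, a median ratio of 3.38 and 6 terms listed for cluster 1 alone. Developmental process held 80 genes, 50.0% of the cluster (42.0% to 58.0%). Organ development held 58 genes, 36.2% (28.8% to 44.2%), against 25.0% of cluster 3 (53 genes, 19.3% to 31.4%), and anatomical structure morphogenesis held 52 genes, 32.5%, against 23.1% of cluster 3. Neither was listed for clusters 2 and 4. Tissue development, the making of epithelium, muscle and connective tissue, held 42 genes, 26.2% (19.6% to 33.8%), against 16.4% of cluster 2 (35 genes, 11.7% to 22.0%). The highest ratios were those of regulation of organ morphogenesis (11 of 179 genes, 9.02), cell morphogenesis involved in differentiation (25 genes, 4.98) and negative regulation of developmental process (30 genes, 4.56). Besides the first and the last of these, organ morphogenesis, tissue morphogenesis, negative regulation of cell differentiation and anatomical structure formation involved in morphogenesis were listed for cluster 1 alone.

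Adhesion, migration and chemotaxis made up 10 terms, of which 6 were listed for cluster 1 alone: cell adhesion, biological adhesion, regulation of cell adhesion, cell migration, cell motility and localization of cell. Cell adhesion, the attachment of cells to each other and to the matrix, held 29 genes, 18.1% (12.5% to 25.0%), a ratio of 4.18. Locomotion held 31 genes (3.65), movement of cell or subcellular component 30 (3.12), and chemotaxis and taxis, the directed movement along a chemical signal, 20 each (4.65 and 4.64). These last 4 terms were listed for cluster 3 as well, where chemotaxis held 19 genes, 8.96% (5.48% to 13.6%) against 12.5% of cluster 1.

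Signalling and response to stimuli made up 24 terms, 18 of them listed for cluster 1 alone. All but the terms for heparin have at least 723 background genes. Among terms of all themes, 27 of 46 with 502 to 973 genes and 28 of 73 with 1016 or more were listed alone. The 18 of 24 lies above these shares, but no test of this was made and nothing is read from it about signalling. Response to stimulus held 85 genes (53.1%, ratio 1.49), response to chemical 60 (1.87) and regulation of response to stimulus 49 (2.06). The highest ratios of the whole table, 100 and 75.0, belonged to cellular response to heparin and response to heparin. They rest on 3 of 5 and 3 of 6 background genes and on expected numbers printed as 0.03 and 0.04, so they are very imprecise. Response to hormone followed with 20 genes and a ratio of 4.02. Of the terms just named, regulation of response to stimulus was also listed for clusters 2 and 3, and the other 5 were listed for cluster 1 alone. So were cellular response to chemical stimulus, response to organic substance, cellular response to organic substance, cellular response to endogenous stimulus, response to nitrogen compound, response to organonitrogen compound, response to oxygen-containing compound, cellular response to oxygen-containing compound, positive regulation of response to stimulus, positive regulation of signaling, positive regulation of cell communication, positive regulation of signal transduction and regulation of phosphorylation.

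Proliferation and cell death made up 8 terms with a median ratio of 3.40. Regulation of cell proliferation (33 genes, 3.09) and negative regulation of cell proliferation (20 genes, 4.23) were shared with cluster 2. Positive regulation of cell proliferation (22 genes, 3.75) and the terms regulation of programmed cell death (29 genes, 2.76), regulation of cell death (29 genes), regulation of apoptotic process, positive regulation of apoptotic process (16 genes, 3.76) and positive regulation of programmed cell death were listed for cluster 1 alone. Apoptosis is the ordered death of cells, and both positive terms for cell death lay at the smallest listable count.

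Of the extracellular region and cell surface terms, cell surface (21 genes, 3.83) was listed for cluster 1 alone. Cell periphery held 58 genes (1.70), extracellular region 56 (1.92) and extracellular region part 52 (2.05), and all 3 were also listed for cluster 2. The 16 broad terms had a median ratio of 1.79. Cellular process held 124 genes (77.5%), single-organism process 123 and single-organism cellular process 116, against 97.99, 91.49 and 82.74 expected. Negative regulation of multicellular organismal process (26 genes, 3.50), regulation of multicellular organismal process (44 genes, 2.43) and regulation of cellular component organization (37 genes, 2.37) had the highest ratios of the theme. Listed for cluster 1 alone were the last of these, cellular component organization, cellular component organization or biogenesis, positive regulation of cellular process and negative regulation of cellular process.

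The Kansl1+/- up list held 343 genes, and 302 terms (1.43% of those tested) were listed for it. Its size sets cluster 1 at 46.6% of that list (41.3% to 52.1%) if all cluster 1 genes belong to it, as the authors describe, with 183 genes outside the cluster. That condition could not be followed gene by gene. Clusters 1 and 2 together have more genes than the up list, so not all genes of both can belong to it, and each part given here holds under the condition. Of the 190 terms, 163 were listed for both, and in 0 of the 163 was the count in cluster 1 above that in the up list. In each of these terms the part of the up list's genes that lay in cluster 1 was above 46.6%. Terms were listed for a high count in cluster 1, so that direction was favoured by the listing. The part also followed the size of the term, since a small term needs a higher ratio in cluster 1 to be listed. Its median was 77.8% in terms with at most 100 background genes, 69.2% with up to 500, 58.3% with up to 1000 and 53.7% in larger ones. The parts are therefore given as a description, and differences between themes cannot be told apart from those of term size. The median was 63.6% in the 97 terms of cluster 1 alone and 53.9% in the 66 shared with another cluster, a split that itself depends on size and on the counts in the other clusters.

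By theme, and so partly by term size, the median part was 76.9% for extracellular matrix and collagen, 75.0% for skeleton, cartilage and growth and 71.0% for growth factor and BMP signalling. It was 57.1% for the nervous system, 54.2% for signalling and 51.4% for broad cellular processes. Extracellular matrix organization had 26 genes in the up list, of which 20 were in cluster 1 (76.9%, 56.4% to 91.0%) and 6 outside, which is 3.28% of the other 183 genes. Nervous system development had 82, of which 42 were in cluster 1 (51.2%, 39.9% to 62.4%) and 40 outside (21.9%). The former term has 374 background genes and the latter 2204, and the latter had the lowest part of the nervous system terms.

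Endochondral bone morphogenesis had 8 genes in the up list and cluster 1 had 8 as well, and complex of collagen trimers had 6 of 6. Under the stated condition, 0 of 183 genes lay outside for these 2 terms, which allows a share of up to 1.64% by a floor of 3 counts and up to 2.0% by the exact interval drawn in the plot of matrix and skeleton terms. Extracellular matrix disassembly and positive regulation of transmembrane receptor protein serine/threonine kinase signaling pathway had 9 of 10 in cluster 1 (90.0%, 55.5% to 99.7%). Extracellular matrix component had 11 of 13 and developmental growth involved in morphogenesis 10 of 12. Skeletal system development, with the most cluster 1 genes of its theme, had 22 of 35 (62.9%, 44.9% to 78.5%).

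The lower bound of the part was above 46.6% in 36 of the 163 terms. Among them were 7 of the 7 matrix terms listed for both (the other 7 of the 14 have no count in the up list), 7 of 30 general development terms, 6 of 11 skeletal and growth terms, 6 of 15 epithelial terms and 0 of 16 nervous system terms. The terms of a theme share genes, were listed for their counts in cluster 1 and differ in size between themes, so nothing is read from these numbers about a theme. The interval of the share in cluster 1 lay wholly above that of the 183 other genes in 5 terms, 2 of the matrix, 1 of the skeleton and growth and 2 of general development.

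**Figure D4:**
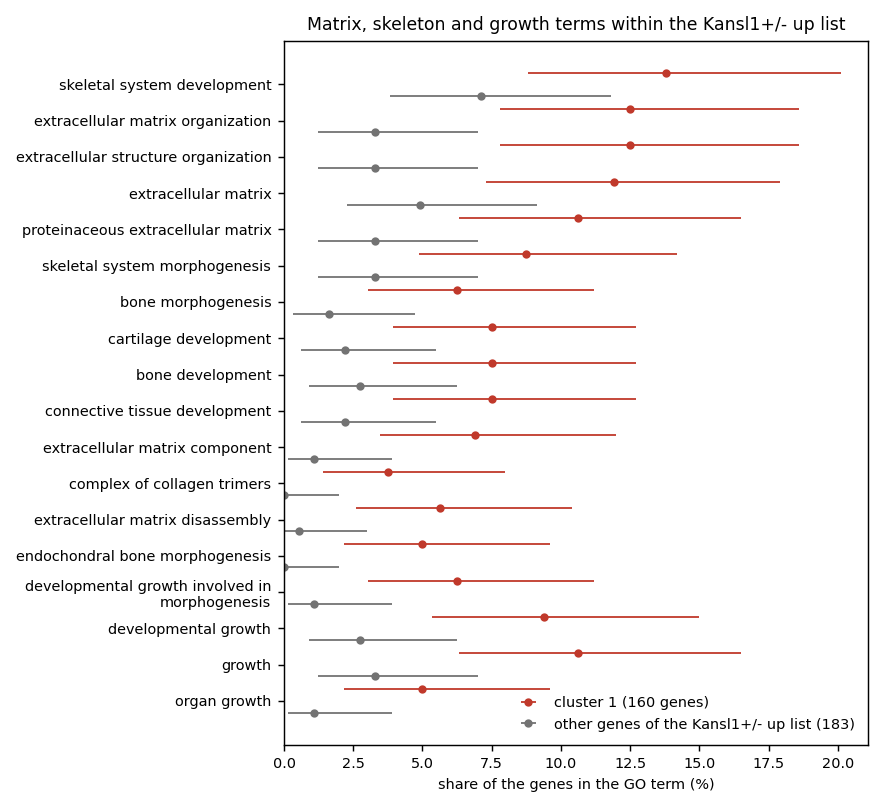
Red points are the share of the 160 cluster 1 genes and grey points the share of the 183 other genes of the Kansl1+/- up list in each matrix, skeleton and growth term listed for both, in percent, with exact 95% intervals for counting error. Every red point lies to the right of its grey one, a direction favoured by the listing, and 2 grey points lie at 0.

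For the 27 terms of cluster 1 that were not listed for the up list, an upper limit replaces the count. A term missing from a table had fewer genes than the smallest count listed for its size, provided that the table holds every term under the authors' threshold. In 10 of the 27 terms that limit equals the count in cluster 1 and leaves no gene outside it: collagen trimer, endochondral bone growth, positive regulation of BMP signaling pathway, endocardial cushion development, epithelial cell fate commitment, both heparin terms and the 3 terms for inhibition of vessel growth. For collagen trimer, for example, 8 genes were in cluster 1 and at most 8 could be in the 343. In 6 more terms the limit left room for 1 gene. The widest gap was 17 genes.

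The same limit was applied to the 124 terms that the tables of clusters 2, 3 and 4 did not list. In 0 of the 124 was the limit of another cluster at or above the share in cluster 1, which follows nearly from the listing rule alone. The lower bound of the cluster 1 share was above the limit of cluster 2 in 13 terms, of cluster 3 in 12 and of cluster 4 in 7. It was above all 3 limits in 7 terms: skeletal system development, epithelium development, extracellular matrix organization, extracellular structure organization, negative regulation of developmental process, cell adhesion and biological adhesion. Extracellular matrix organization took at least 7.81% of cluster 1 by its interval, against at most 13 of 214 (6.07%), 13 of 212 (6.13%) and 12 of 162 (7.41%) genes of the others. Skeletal system development took at least 8.82% against at most 7.48%, 7.55% and 8.02%. These 7 were picked from 124 terms by the counts that listed them, they include 2 pairs of near-identical sets, and the limits carry no counting error of the other clusters, so they are a description and no test of a difference. For the other 117 terms, the share that at least 1 other cluster could hold reached into the interval of cluster 1. Bone morphogenesis is one: 10 genes of cluster 1 (6.25%, 3.04% to 11.2%) stand against up to 7, 7 and 6 genes in clusters 2, 3 and 4.

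The opposite pattern was seen in 12 terms listed for clusters 2, 3 and 4 and not for cluster 1. They were plasma membrane, plasma membrane part, regulation of localization, cell projection, neuron part, neuron projection, cell-cell signaling, somatodendritic compartment, synapse, regulation of ion transport, synaptic transmission and neuronal cell body. Synaptic transmission could hold at most 15 of the 160 genes (9.38%), against 25 (11.7%), 27 (12.7%) and 27 (16.7%) genes of clusters 2, 3 and 4. Neuron projection, the axons and dendrites, could hold at most 21 (13.1%), against 15.4%, 21.7% and 17.3%, and cell-cell signaling at most 20 (12.5%), against 16.8%, 16.5% and 19.1%. For synapse the limit of 17 genes (10.6%) lay above the 10.3% of cluster 2 and below the 15.6% and 14.2% of clusters 3 and 4. In 6 of the 12 terms the shares of all 3 clusters were above the limit of cluster 1, in somatodendritic compartment by as little as 10.7% against 10.6%. The 12 were picked for being listed for the other clusters and not for cluster 1, which nearly fixes the direction, and the shares carry counting error, so this is a description and no test of a difference.

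**Figure D5:**
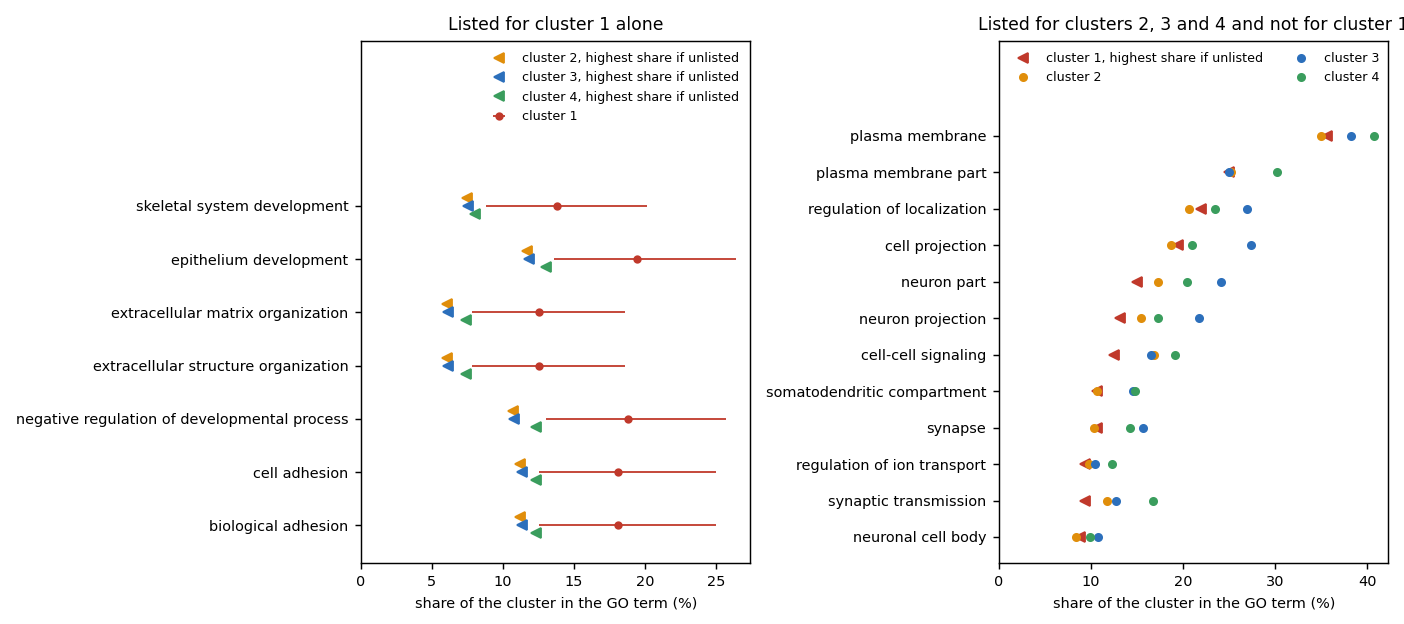
Left, the share of cluster 1 (red points, with exact 95% intervals) in the 7 terms whose lower bound lies above the highest share that clusters 2, 3 and 4 can have while unlisted (triangles). Right, the 12 terms listed for clusters 2, 3 and 4 (points) and not for cluster 1, whose highest possible share is the red triangle. Both x axes are in percent of the cluster's genes, and in 6 of the 12 terms all 3 points lie to the right of the red triangle.

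The Del/+ up list held 512 genes, a size recovered from the expected numbers like that of the other lists, and 250 listed terms (1.18% of those tested). The authors' own count of promoters up in Del/+ is smaller than this recovered number of genes. Cluster 1 shared 78 terms with the Del/+ up list, which is 41.1% of the terms of cluster 1 and 31.2% of those of Del/+. In 76 of the 78 the share was the higher in cluster 1, and the intervals overlapped in 73. The terms were chosen for a high count in cluster 1, and a list of 512 genes reaches the threshold at a lower share than one of 160, so this direction was nearly fixed. Cluster 1 was moreover defined by the absence of a rise in Del/+, so the values that follow are a description of 2 lists kept apart by their making. Organ development took 36.2% of cluster 1 (28.8% to 44.2%) and 21.3% of the Del/+ list (109 genes). Nervous system development took 26.2% and 27.7% (142 genes). Of the 14 matrix, 12 skeletal and growth, 8 growth factor and BMP and 18 epithelial terms, 0 were listed for Del/+ up. In that list, extracellular matrix organization could hold at most 22 of 512 genes (4.30%) and skeletal system development at most 27 (5.27%). Listing for Del/+ up followed term size. Over all themes it took in 0 of 23 terms with 5 to 94 background genes and 4 of 48 with 103 to 500. Among larger terms it took in 24 of 46 with 502 to 973 genes and 50 of 73 with 1016 or more. Most terms of these themes have at most 500 genes, and for those the 0 is near the share for their size. Nothing is read from it about a theme. Of the 13 heart and vessel terms, 2 were listed for Del/+ up. They were vasculature development, with 29 genes (5.66%) against 14 in cluster 1 (8.75%, 4.87% to 14.2%), and blood vessel morphogenesis, with 28 (5.47%) against 13 (8.12%). The shared wt libraries bear on this comparison as well, and no test of it was made. Neither of the lists of genes with lower H3K4me3 shared a term with cluster 1 (0 of 14 for Kansl1+/- and 0 of 2 for Del/+).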

How the data were processed

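H3K4me3 was profiled in 12 hippocampi. The authors mapped the libraries with BWA 0.6.2 (the submitters' processing notes name mm9), called peaks with their own script, compared 3 mutant with 6 wt libraries per promoter by DESeq2 at p < 0.01, and clustered the genes with raised H3K4me3. They deposited 8 tables of GO terms, from hypergeometric tests listed at a threshold of 1e-05. Per the file headers, an entry holds the authors' p-value and corrected p-values, the count of list genes, the background count, an expected number, which is a rounded score that the authors derived from the list size, and a fold. The p-value columns were read for list sizes and the number of tests alone, and the authors' folds and Benjamini values were not used. The tables held 0 per-sample columns left unused and no depth.

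The background (23468 genes), the size of each list and the number of tests (21172) were recovered and returned the printed expected number of all 1076 entries. The procedure was tested on simulated data. The 95% intervals of shares are exact (Clopper-Pearson) and take in no error besides that of counting. The listing limit is the highest count whose one-sided hypergeometric p stays at or above the authors' 1e-05, and all 1076 entries lay above theirs. No test between lists was made. Terms with values were the 3 with the most genes and the 3 with the highest ratio in each theme and those listed for all 4 clusters, with others where a pattern turned on them. The members, themes and rule were chosen with earlier results of these data known. Alternatives were 1 gene fewer (the EASE count), terms with at most 1000 genes, terms with the same counts taken once, matching by name, recomputed expected numbers, and the Del/+ up table as a further table. The scripts ran under Python 3.11.15 with scipy 1.17.1 and numpy 2.4.6, and figures were drawn with matplotlib 3.10.9.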

Additional observations from a re-analysis of the deposited data

How the results depend on the processing

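With terms of at most 1000 background genes counted, 117 of the 190 terms were left, and 96 of them were listed for cluster 1 alone. With 1 gene fewer in the cluster (the EASE count), 152 terms would have been listed, 90 of them for cluster 1 alone. This count by theme was added after seeing the data: it left 9 of 14 matrix terms, 7 of 13 heart and vessel terms and 2 of 6 terms of stem cells, muscle, sensory organs and immunity, and every other theme stayed within 1.5 times. The number of terms listed for cluster 1 alone was 124 when matched by name, 122 when terms with equal counts were taken once and 110 when the Del/+ up table was read as a further table. The median part of the Kansl1+/- up list in cluster 1 went from 58.9% to 56.4% with 1 gene fewer. For the 87 terms given by the rule, removing 1 gene or recomputing a rounded expected number is too small a change to leave a counting interval, so those alternatives say nothing of stability. Leaving out a replicate could not be done, since the tables hold no values per mouse. No paired analysis was possible because the tables carry no replicate columns and no result comes from a test between samples. The number of genes in a term limits its precision, and the depth of the libraries is unknown from the tables used here.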
